A study of Mus musculus with 28 samples.

Results

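The genes of the major histocompatibility complex (MHC) and of antigen presentation were followed in mouse liver: every gene whose symbol starts with H2-, together with B2m, Cd74, Ciita, Nlrc5, Tap1, Tap2 and Tapbp. The rule found 51 of the 23393 genes counted. By class these were 32 class I heavy-chain genes and pseudogenes, 11 class II genes (chains, peptide-exchange chains and the invariant chain Cd74), 4 genes of the class I machinery (B2m, Tap1, Tap2, Tapbp), 2 transcriptional regulators (Ciita and Nlrc5) and 2 genes that carry the prefix but encode no MHC chain, H2-Ke2 (the prefoldin subunit Pfdn6) and H2-Ke6 (a short-chain dehydrogenase). Livers came from 28 mice of strain 129svj aged 11 to 13 months, 7 in each of 4 groups. Wild type mice (WT) and SIRT6 heterozygotes (HZ), which carry 1 intact allele of the gene for the deacylase SIRT6, received by mouth a gavage of 0.5% carboxymethylcellulose (vehicle), alone or carrying the compound WY-14643 (WY) at a dose of 50 mg/kg, and liver was taken after 12 h. WY-14643 is an agonist of PPARα, the nuclear receptor that drives fatty acid oxidation in hepatocytes. No source used here gives the sex of the mice or how the heterozygous allele was made.

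Class I molecules pair a polymorphic heavy chain with the light chain β2-microglobulin, encoded by B2m, and show peptides from the cytosol at the cell surface. The transporter TAP1/TAP2 brings these peptides into the endoplasmic reticulum, where tapasin, encoded by Tapbp, helps load them. Class II molecules are α/β pairs that travel with the invariant chain CD74, exchange peptide with the help of H2-DM, and are made mainly by dendritic cells, macrophages and B cells. CIITA drives class II genes and NLRC5 class I genes through a shared promoter module of X and Y boxes bound by RFX, CREB family members and NF-Y. Hepatocytes make class I, and in the mouse liver they also secrete Q10, a soluble class I molecule encoded by H2-Q10.

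Gene counts ranged from 15795201 to 20020078 a library, and the 51 genes took 0.534 to 0.795% of them. Sirt6 was at 1.91 to 3.53 CPM (counts scaled to library size) in WT vehicle against 0.882 to 1.38 in HZ vehicle, and at 2.27 to 4.18 in WT WY against 1.29 to 2.29 in HZ WY. These ranges overlapped by a narrow margin under WY only. On the second principal component of all genes (9.77% of the variance) 5 HZ libraries stood together at 1 end: WY 21, 14 and 15 and vehicle 38 and 30, each named by its animal number. The main results that these libraries move are also given without them. WY animals are numbered 2 to 25 and vehicle animals 29 to 78, and the libraries of each treatment were deposited in a table of their own, so treatment, number range and table cannot be told apart.

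The stretches upstream of 5 of the genes are shown because the results turn on them: H2-Q10 and H2-K1 are the most abundant heavy-chain genes and close relatives, H2-Aa and H2-Eb1 are class II chains whose levels went together, and B2m is the light chain that fell with WY. They come from RefSeq on GRCm38.p6, 5′ to 3′ on the gene's strand, with positions relative to the RefSeq start of transcription. Capitals mark the motifs searched on both strands: the Y box core ATTGG, the X2 core TGACG, the class I enhancer A (GGGGA and TCCCC with any 1 base between them) and the interferon-stimulated response element (GAAA and GAAA with any 2 bases between them). In H2-Q10 they mark the letters that align with enhancer A of H2-K1.
H2-K1: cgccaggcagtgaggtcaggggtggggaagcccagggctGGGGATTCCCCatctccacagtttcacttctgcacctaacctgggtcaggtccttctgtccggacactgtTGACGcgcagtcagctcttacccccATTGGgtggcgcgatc
H2-Q10: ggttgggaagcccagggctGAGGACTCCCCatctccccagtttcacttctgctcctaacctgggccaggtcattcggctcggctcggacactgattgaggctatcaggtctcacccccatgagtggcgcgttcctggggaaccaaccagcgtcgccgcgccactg
H2-Aa: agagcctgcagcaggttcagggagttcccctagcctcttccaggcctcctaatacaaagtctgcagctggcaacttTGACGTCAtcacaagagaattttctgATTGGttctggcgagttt
H2-Eb1: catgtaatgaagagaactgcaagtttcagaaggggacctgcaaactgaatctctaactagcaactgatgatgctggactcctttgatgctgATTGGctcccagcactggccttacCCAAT
B2m: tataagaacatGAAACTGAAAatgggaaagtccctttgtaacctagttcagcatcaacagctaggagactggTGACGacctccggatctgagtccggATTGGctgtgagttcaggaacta
The H2-K1 stretch is chr17:34000348-34000497 on the minus strand (-150 to -1), the H2-Q10 stretch chr17:35469894-35470058 on the plus strand (ending at -31), and the H2-Aa stretch chr17:34287854-34287973 on the minus strand. H2-Eb1 is shown from chr17:34305717-34305836 and B2m from chr2:122147537-122147656, both on the plus strand, all 3 at -150 to -31.

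H2-K1 held the enhancer A letters GGGGATTCCCC, whereas the aligned letters of H2-Q10 were GAGGACTCCCC, with 9 of 11 letters the same. Over the aligned part of 229 letters the promoters of the 2 genes shared 196 letters (85.6%). Promoter windows of 300 bases were at hand for 34 of the 51 genes. A Y box core lay in 31 of these, against 37.4% of all 32851 windows in the table, and an X2 core in 14, against 20.8%. Enhancer A was in 3 (H2-K1, H2-D1 and H2-Q6), against 0.0487% of all windows, and the response element in 3 (B2m, H2-T23 and H2-T22), against 3.44%. The X1 box, searched in 1 form only, was in 6: the class I genes H2-D1, H2-Q4, H2-Q6, H2-Q7 and H2-M3 and the class II gene H2-DMb1 (0.289% of all windows), and the interferon gamma activated site TTCNNNGAA in 3 (8.3%). In the windows of H2-Q10, H2-T3 and H2-M5 none of these letters occurred. A match shows only that the letters are present, and the 5-letter cores can lie inside longer motifs and overlap them.

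Of the 51 genes, 25 had a mean of at least 1 CPM over the 28 libraries and 26 were below it. Among the 26, 8 had no count in any library: 7 class I genes (H2-M1, H2-M9, H2-M10.3, H2-Q6, H2-Q7, H2-Q9, H2-T9) and the class II pseudogene H2-Ea-ps. A count of 0 allows a level of up to 0.15 to 0.19 CPM in a library, by its total (3 counts, counting error only). This bound does not cover reads that were not placed uniquely or were given to another gene. H2-Q6 and H2-Q7 share 35 and 27.1% of their stretches of 50 bases with other genes, and H2-Q9 and H2-T9 have no gene in GENCODE M21. A further 16 had counts but did not pass the filter on low counts, and 2 passed it with a mean below 1 CPM, H2-Ob (0.549 CPM) and H2-Q5 (0.508 CPM). In 3 of the 26 some library was above 1 CPM: H2-Ob and H2-Q5, both up to 1.96, and H2-M2, up to 1.33. In all, 27 genes were tested among 12607. They comprised 12 class I genes, 7 class II genes, all 4 genes of the class I machinery, both regulators and both genes that encode no MHC chain. The genes that passed through a group where they are high had to differ, so counts of tested genes do not describe all 51.

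Per kilobase of exon, averaged over the 28 libraries, B2m was highest at 1910 CPM/kb, followed by H2-Q10 at 618 and H2-K1 at 374 CPM/kb. The other genes lay far below: Cd74 at 51.4, H2-D1 at 49.5, H2-Ke6 at 41.7, H2-T23 at 29.8, H2-Ke2 at 25.5 and Tapbp at 17.7 CPM/kb. H2-T23 encodes the nonclassical class I molecule Qa-1. The class II chains followed at 14.8 (H2-Eb1), 12.5 (H2-Ab1) and 9.47 CPM/kb (H2-Aa). H2-Aa was the lowest of the 3 in 28 of 28 mice, and H2-Eb1 was above H2-Ab1 in 27. This order rests on the lengths, which cover all annotated exons of a gene whichever transcripts were expressed. They were 3.8 kb for H2-Aa, 2.57 kb for H2-Ab1 and 1.94 kb for H2-Eb1. In CPM H2-Aa had the highest mean of the 3 (36, against 32.2 for H2-Ab1 and 28.8 for H2-Eb1). Below them were H2-Q4 (6.72), Tap2 (6.41), H2-K2 (4.97), H2-Bl (4.61), Tap1 (3.25), H2-T24 (2.62), H2-DMb1 (1.33), H2-M3 (1.31), H2-T10 (1.15), Nlrc5 (0.98), H2-DMa (0.775), H2-Q1 (0.401) and Ciita (0.178 CPM/kb). H2-M3 presents formylated bacterial peptides. The transcript levels of both regulators were thus near or below 1 CPM/kb in these livers, while B2m and the 2 most abundant heavy chains were over 300 CPM/kb.

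**Figure D1:**
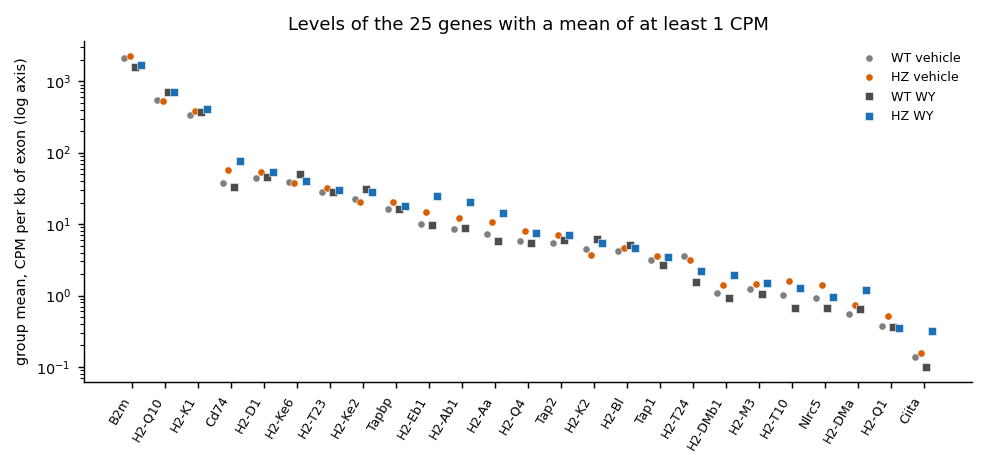
Group means of the 25 genes with a mean of at least 1 CPM, in CPM per kilobase of exon on a log axis, 1 symbol for each of the 4 groups. B2m, H2-Q10 and H2-K1 stand above all others in every group.

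Class I reads can be hard to place. All 50-base stretches of the longest annotated transcript of each gene were searched in other genes, so exon sequence outside that transcript was not examined. Of these stretches, 50.1% of those of H2-T10 occur in another gene (mostly H2-T22 and the antisense BC023719). The share was 36.9% for H2-Q4, 35.4% for H2-Q5, 27.2% for H2-DMb1 (in H2-DMb2) and 19.7% for H2-Q10 (mostly H2-Q7). For H2-D1 the share was 14.3% and for H2-K1 8.11%, while for H2-Eb1, H2-Ab1, Cd74 and B2m it was 0. H2-Ke6 shares 96.3% of its stretches with Gm20427 on the same strand, and other genes, mostly antisense, overlap 29% of the exon bases of Tapbp and 18.5% of those of Tap2. The values of these genes are therefore uncertain, because the strand setting is not known and only uniquely placed reads were counted. Mice of strain 129svj were aligned to mm10, and how many reads their own class I alleles lost was not tested.

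With WY, H2-Q10 and the pseudogene H2-K2 rose and the light chain gene B2m fell in both genotypes, and in WT H2-Bl rose and H2-T24 fell. Of the 12 class I genes tested, 3 rose and 1 fell in WT, and 2 rose in HZ. Of the 27 tested genes, 5 rose, where 27.4% of all 12607 genes rose, and 2 fell, where 26.7% of all genes fell. In HZ 3 rose (29.3% of all genes) and 2 fell (26.4%). Genes were called at an adjusted p below 0.05 by edgeR's quasi-likelihood test, with Benjamini-Hochberg adjustment over all genes tested. These shares of all genes are the background for the members' counts. The median log2 change of the 27 was -0.08 in WT and 0.09 in HZ, against -0.017 and 0.011 over all genes.

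H2-Q10 (chr17:35470089-35474563 on mm10) had the highest CPM of all members. Its lowest, median and highest CPM were 2020, 2340 and 2710 in WT vehicle and 2160, 3120 and 3740 in WT WY. In WT WY 6 of 7 mice were above the highest WT vehicle mouse, and animal 10 was the exception. In HZ it was at 1640, 2270 and 2930 under vehicle and at 2660, 2980 and 3740 under WY, with some overlap as well. The log2 fold change with its standard error was 0.38 ± 0.11 in WT (edgeR adjusted p = 0.0038) and 0.43 ± 0.11 in HZ (edgeR adjusted p = 0.00134). Between genotypes it did not pass: the HZ minus WT difference was -0.05 ± 0.11 under vehicle and -0.01 ± 0.11 under WY.

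B2m (chr2:122147686-122153083) moved the other way. It was at 1630, 1770 and 2120 CPM in WT vehicle and at 1220, 1410 and 1500 in WT WY, and these groups did not overlap, as in 12.1% of all genes in that direction. In HZ the values were 1690, 1870 and 2510 under vehicle and 1190, 1490 and 1780 under WY, where only the upper end of WY reached into the vehicle range. The fall was -0.39 ± 0.09 in WT (edgeR adjusted p = 0.000439) and -0.41 ± 0.09 in HZ (edgeR adjusted p = 0.000229). Of 6 hepatocyte markers, 4 fell with WY in WT (median -0.41) and 5 in HZ (median -0.50), and their part in the B2m change was not tested. In bulk liver, fewer cells of a type and less RNA per cell cannot be told apart for any of these changes.

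The classical heavy chains H2-K1 and H2-D1 passed in none of the comparisons with edgeR over all 28 libraries. For WY in WT, H2-K1 was called higher by limma with voom quality weights, in a fit of the groups compared alone and without the 5 HZ libraries apart. H2-K1 (chr17:33996017-34000347) was at 894, 987 and 1090 CPM in WT and 966, 1040 and 1530 in HZ under vehicle, and at 1040, 1060 and 1220 in WT and 967, 1090 and 1630 in HZ under WY. Its WY change was 0.17 ± 0.10 in WT and 0.09 ± 0.10 in HZ. H2-D1 ranged from 101 to 138 CPM in WT vehicle (median 114) and 108 to 132 in WT WY (115), while HZ ranged from 105 to 195 under vehicle (125) and 104 to 188 under WY (131). For both genes the HZ groups reached higher than the WT groups, led by animals 38 and 30 under vehicle and 21 and 14 under WY.

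Heavy and light chain transcripts therefore stood in another proportion under WY. The ratio of H2-K1 to B2m CPM was 0.478 to 0.608 in WT vehicle (median 0.543) and 0.739 to 0.854 in WT WY (0.814). In HZ it was 0.54 to 0.677 (0.571) under vehicle and 0.682 to 0.919 (0.82) under WY. Vehicle and WY did not overlap in either genotype. The ratio of H2-Q10 to B2m had medians of 1.32 in WT and 1.26 in HZ under vehicle, and 2.25 in WT and 2.09 in HZ under WY. Its WT ranges overlapped (up to 1.66 under vehicle, from 1.53 under WY) and its HZ ranges did not (up to 1.56 and from 1.58). H2-K1 to H2-D1 was steadier, with medians from 8.28 to 9.34.

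**Figure D2:**
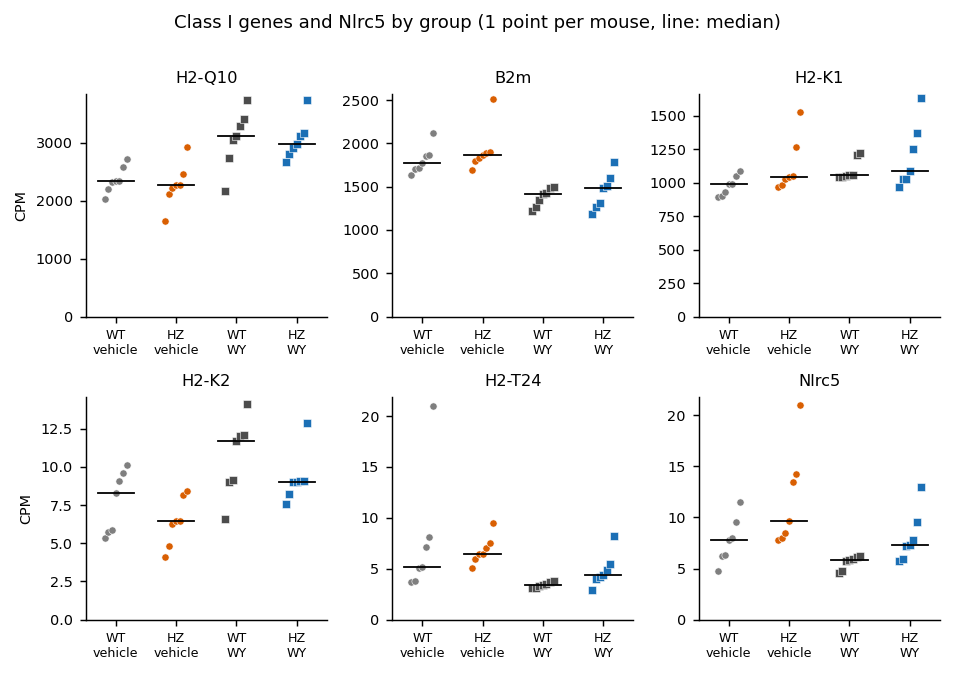
CPM of 5 class I genes and of the class I regulator Nlrc5 in each mouse by group, on linear axes from 0, with a line at the median. H2-Q10 is higher and B2m lower under WY in both genotypes, while H2-K1 shows little change with WY.

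Other class I genes changed with WY at much lower levels. H2-K2 (chr17:33974659-33978827), annotated as a transcribed pseudogene next to H2-K1, had a lowest value of 5.33 and a median of 8.3 CPM in WT vehicle (mean 7.72 ± 2.02, SD, n = 7), against 6.56, 11.7 and 14.1 in WT WY. It rose by 0.46 ± 0.17 in WT (edgeR adjusted p = 0.0253) and by 0.53 ± 0.18 in HZ (edgeR adjusted p = 0.011), from 4.08, 6.45 and 8.42 to 7.58, 9.02 and 12.9 CPM. The groups overlapped in both genotypes. Without WT vehicle 29, 31 or 37 or WT WY 24 the WT call was lost (adjusted p 0.0584 to 0.0708), and without the 5 HZ libraries apart the HZ change was 0.31 (edgeR adjusted p = 0.227). H2-Bl, annotated as a polymorphic pseudogene, was at 5.24, 6.91 and 8.37 CPM in WT vehicle and 7.35, 8.55 and 9.34 in WT WY, with overlap. It rose by 0.29 ± 0.12 in WT (edgeR adjusted p = 0.0488), and its HZ change was 0.01 ± 0.12. The WT call was lost without a filter on low counts (edgeR adjusted p = 0.0578), with a term for animals 71 to 78 (edgeR adjusted p = 0.127) and without many single mice, the largest edgeR adjusted p being 0.119 without WT vehicle 32.

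H2-T24 (chr17:36005695-36020560) was at 3.67, 5.19 and 21 CPM in WT vehicle and at 3.07, 3.4 and 3.76 in WT WY. It fell by 1.17 on the log2 scale in WT (SE 0.30, edgeR adjusted p = 0.00151). The highest value belonged to WT vehicle 76, and the next mouse of that group was at 8.11 CPM. Without mouse 76 the WT change was -0.68 (edgeR adjusted p = 0.00413), and with a term for the animals numbered 71 to 78 it was -0.60 (edgeR adjusted p = 0.0832). In HZ H2-T24 was at 5.09, 6.49 and 9.53 CPM under vehicle and 2.89, 4.4 and 8.19 under WY, a change of -0.51 ± 0.29 (edgeR adjusted p = 0.139). Mouse 76 also had the highest summed level of 8 interferon-induced GTPases, 800 CPM against a median of 455 in its group, and its Irgm1 (89.2 CPM) was the highest of the group. Their part in the H2-T24 level was not tested.

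H2-T10 was lower in every WT WY mouse (2.03, 2.12 and 2.8 CPM) than in every WT vehicle mouse (2.87, 3.31 and 4.98 CPM), as were 12.1% of all genes. The change of -0.58 ± 0.30 did not pass (edgeR adjusted p = 0.107). H2-T10 was called lower by limma with voom quality weights, in a fit of the groups compared alone and without HZ vehicle 38. In HZ the change was -0.36 ± 0.28.

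The peptide transporters and tapasin did not pass with WY. Tapbp was at 49.4, 58 and 68.4 CPM in WT and 59.5, 66.1 and 119 in HZ under vehicle, and 49.3, 59 and 67.6 in WT and 58.5, 62.9 and 83 in HZ under WY. Tap2 was at 17.1, 20.4 and 26.2 CPM in WT and 21.8, 23.5 and 41.9 in HZ under vehicle, and 19.6, 23.2 and 25.7 in WT and 24.3, 26.1 and 31.9 in HZ under WY. Tap1 group means were 17.3 ± 4.49, 19.8 ± 5.12, 14.9 ± 2.12 and 19.1 ± 4.16 CPM in the same order (SD, n = 7). The WY changes of these 3 genes lay between -0.21 and 0.17 on the log2 scale.

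Nlrc5, the regulator of class I genes, was at 4.81, 7.82 and 11.5 CPM in WT and 7.82, 9.65 and 21 in HZ under vehicle, and 4.61, 5.87 and 6.24 in WT and 5.71, 7.3 and 13 in HZ under WY. With WY it fell by 0.55 on the log2 scale in HZ (SE 0.21, edgeR adjusted p = 0.0267), and the groups overlapped. The change in WT was -0.46 ± 0.22 (edgeR adjusted p = 0.0757), and the difference between genotypes in this response was -0.09 ± 0.30 (edgeR adjusted p = 0.944). The HZ call was lost without HZ vehicle 30, whose 21 CPM was the highest value (-0.35, edgeR adjusted p = 0.118), and without HZ vehicle 71 or HZ WY 17 or 2. In fits of the groups compared alone the HZ call was lost (edgeR adjusted p = 0.0783) and the WT change passed (-0.47, edgeR adjusted p = 0.0162). The WT change also passed without WT vehicle 29, without HZ vehicle 30 and without the 5 HZ libraries apart (edgeR adjusted p = 0.0185).

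Both genes that encode no MHC chain rose with WY. H2-Ke2 was at 24.6, 26.5 and 30 CPM in WT vehicle and 33, 37.9 and 41.2 in WT WY, and at 19.2, 24.4 and 27.5 in HZ vehicle and 28.7, 34 and 39.3 in HZ WY, with no overlap in either genotype, as in 15.7% of all genes in WT and 12.6% in HZ. Its changes were 0.46 ± 0.07 in WT (edgeR adjusted p = 5.73e-06) and 0.48 ± 0.07 in HZ (edgeR adjusted p = 2.13e-06). H2-Ke6 was at 61.1, 64 and 66.4 CPM in WT vehicle and 77.6, 78.9 and 93.8 in WT WY, again without overlap, a rise of 0.36 ± 0.06 (edgeR adjusted p = 1.16e-05). In HZ it was at 55.8, 60.7 and 71.3 under vehicle and 57, 70.1 and 73.4 under WY, and its change of 0.12 ± 0.06 did not pass (edgeR adjusted p = 0.0977).

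**Figure D3:**
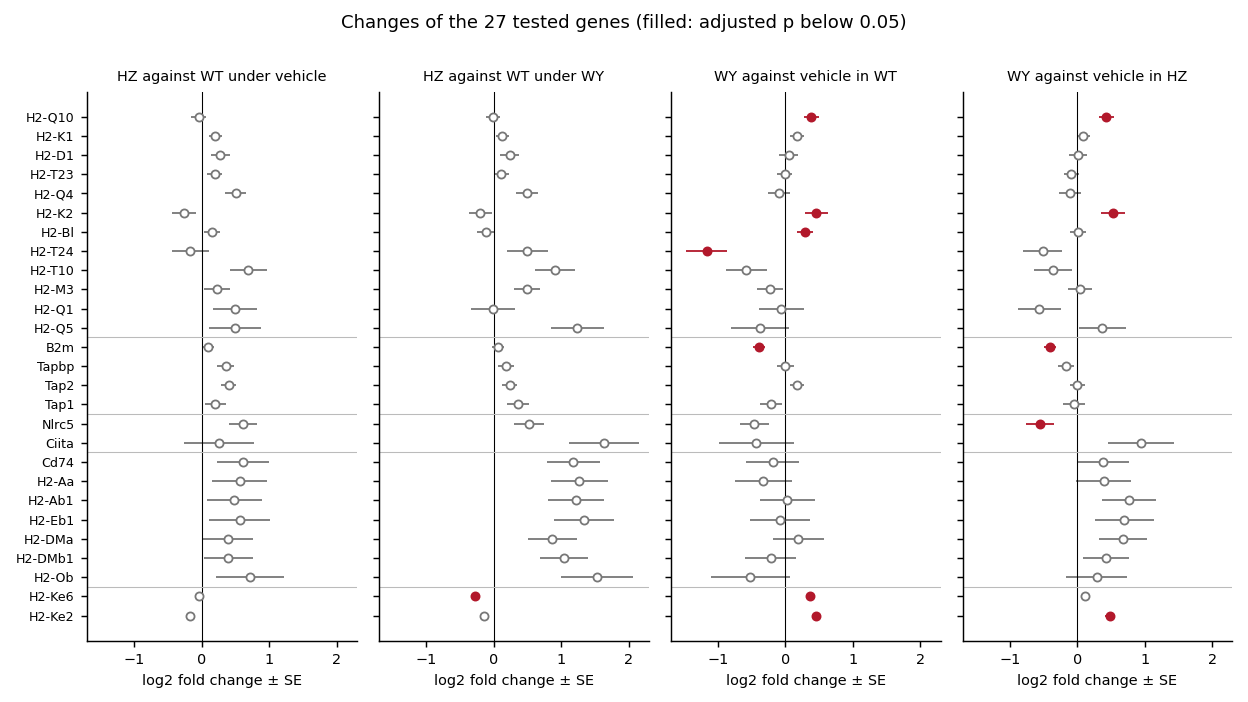
Log2 fold changes with standard errors of the 27 tested genes in 4 comparisons, with lines between class I, class I machinery, regulators, class II and the genes that encode no MHC chain. Filled symbols passed at an adjusted p below 0.05: 0 for genotype under vehicle, 1 for genotype under WY, 7 for WY in WT mice and 5 in HZ mice.

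Between genotypes under vehicle none of the 27 genes passed, where 2.07% of all genes did. At an unadjusted p below 0.05 there were 6 (17.9% of all genes): H2-Q4, H2-T10, Tap2, Tapbp and Nlrc5, all with higher levels in HZ, and H2-Ke2 with lower. DESeq2 called 2 (H2-Q4 and Tap2) and limma with voom quality weights 1 (Tap2). Over all genes DESeq2 called 500 and limma 729. In all, 22 of the 27 differences were positive, with a median of 0.35 against -0.001 over all genes. Tap2 had the smallest adjusted p: its difference was 0.40 ± 0.11 (edgeR adjusted p = 0.0574) and 0.26 (edgeR adjusted p = 0.181) without HZ vehicle 38. For Tapbp the difference was 0.35 ± 0.12 (edgeR adjusted p = 0.131), and 0.19 (edgeR adjusted p = 0.39) without that mouse. For Nlrc5 it was 0.61 ± 0.21 (edgeR adjusted p = 0.124). Without the 5 HZ libraries apart the differences were 0.21 for Tap2, 0.12 for Tapbp and 0.32 for Nlrc5. In that fit 2 of the 27 genes had an unadjusted p below 0.05, and the share of all genes was not computed.

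H2-Q4, a Qa-region class I gene, was at 12.3, 15 and 18.3 CPM in WT vehicle and 15.8, 18.8 and 35.4 in HZ vehicle, a difference of 0.50 ± 0.16 (edgeR adjusted p = 0.101) that was 0.33 without HZ vehicle 38. H2-T10, related to the ligands of some γδ T cells, was at 2.87, 3.31 and 4.98 CPM in WT vehicle and 3.14, 4.47 and 14.5 in HZ vehicle. Its difference of 0.69 ± 0.28 (edgeR adjusted p = 0.189) was 0.23 without HZ vehicle 38. Both differences were smaller without that mouse, and neither passed with or without it. Without the 5 HZ libraries apart they were 0.24 for H2-Q4 and 0.15 for H2-T10.

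Under WY 1 of the 27 genes passed between genotypes, and it encodes no MHC chain. H2-Ke6 was lower in HZ WY (57 to 73.4 CPM) than in WT WY (77.6 to 93.8 CPM), by -0.28 ± 0.06 (edgeR adjusted p = 0.0164). The groups did not overlap, as in 0.896% of all genes in that direction. None of the 27 was called higher, where 1.42% of all genes were, and 1 was called lower, where 1.74% were. Without the 5 HZ libraries apart the H2-Ke6 difference was -0.18 (edgeR adjusted p = 0.129). At an unadjusted p below 0.05 there were 16 of the 27 (24.1% of all genes), and 21 of the 27 differences were positive, with a median of 0.49 against 0.009 over all genes. The 16 include H2-Ob and H2-Q5, whose means are below 1 CPM and highest in HZ WY. Both may have passed the filter through that group, and a fit of the groups compared alone tested 25 of the 27. The 16 became 5 without HZ WY 21 and 6 without the 5 HZ libraries apart, and the shares of all genes in those fits were not computed. DESeq2 called 11 of the 27, 10 of them higher in HZ, and limma with voom quality weights called 2, H2-Ke6 and H2-T10. Over all genes DESeq2 called 1102 and limma 968.

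In 2 class I genes every HZ WY mouse was above every WT WY mouse, as were 0.452% of all genes in that direction. H2-T10 was at 2.03, 2.12 and 2.8 CPM in WT WY and 2.95, 3.22 and 8.48 in HZ WY, a difference of 0.91 ± 0.30 (edgeR adjusted p = 0.0715). H2-Q4 was at 12.4, 14.1 and 15.4 CPM in WT WY and 15.5, 16.7 and 32.1 in HZ WY, a difference of 0.49 ± 0.16 (edgeR adjusted p = 0.0748). Neither passed with edgeR over all 28 libraries. In a fit of the groups compared alone H2-T10 passed (edgeR adjusted p = 0.0374). Without both HZ vehicle 38 and HZ WY 21 the H2-T10 difference was 0.67 and passed (edgeR adjusted p = 0.0342). That of H2-Q4 was then 0.33 and did not pass (edgeR adjusted p = 0.0829). The groups lay close at their border, and without HZ WY 21 the differences were 0.67 for H2-T10 (edgeR adjusted p = 0.197) and 0.33 for H2-Q4 (edgeR adjusted p = 0.204). Without the 5 HZ libraries apart they were 0.56 and 0.20. Without HZ vehicle 38 both passed (edgeR adjusted p = 0.0142 for H2-T10 and 0.0315 for H2-Q4). H2-T23 differed less, with group means of 81.6 ± 20.2, 93.4 ± 13.5, 81.3 ± 6.86 and 88 ± 11.8 CPM in WT vehicle, HZ vehicle, WT WY and HZ WY (SD, n = 7), and a range of 62.6, 75.4 and 124 CPM in WT vehicle alone. H2-M3 means ran from 1.52 ± 0.394 CPM in WT WY to 2.15 ± 0.679 in HZ WY, a difference of 0.49 ± 0.19 (edgeR adjusted p = 0.115). H2-Q1 means lay between 1.02 and 1.48 CPM, and its difference under WY was -0.01 ± 0.33.

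The class II genes varied widely between mice, above all in HZ. H2-Aa (chr17:34282744-34287823), the α chain of the I-A molecule, was at 15, 30.3 and 43.4 CPM in WT and 20.7, 31.4 and 100 in HZ under vehicle, and 14.4, 23.9 and 25.6 in WT and 17.3, 43.5 and 162 in HZ under WY. H2-Ab1, its β chain, was at 12.8, 22.5 and 35.5 CPM in WT and 15.5, 23.8 and 73.3 in HZ under vehicle, and 14.3, 24.3 and 27.2 in WT and 16.5, 43.3 and 153 in HZ under WY. In H2-Eb1, the β chain of I-E, the median and highest were 20.9 and 31.3 CPM in WT vehicle (mean 19.9 ± 6.94, SD, n = 7). The lowest, median and highest were 14.2, 19.9 and 79 in HZ vehicle, and under WY 12, 20.9 and 22.3 in WT and 14.2, 36.9 and 146 in HZ. The same 2 HZ mice, 38 and 21, were highest. Cd74, the invariant chain, was at 39.6, 73.8 and 86.8 CPM in WT and 48.1, 75.4 and 264 in HZ under vehicle, and 44.3, 59.3 and 67.1 in WT and 50.5, 107 and 363 in HZ under WY. The groups overlapped for all 4 genes. For H2-Aa, H2-Ab1 and Cd74 under WY, HZ mice 21, 14, 15 and 2 were above every WT WY mouse in all 3. HZ mouse 18 was above them in H2-Aa only (26 against at most 25.6 CPM), and HZ mice 17 and 5 in none. Under vehicle, HZ mouse 38 stood far above the rest.

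All 7 tested class II genes had positive differences between HZ and WT under WY, and none passed with edgeR over all 28 libraries. H2-Ob, at a mean of 0.549 CPM, is near the filter on low counts and had its highest group mean in HZ WY (0.839 CPM). The filter may have kept H2-Ob for that reason, so its sign is not support in counts of the 7. DESeq2 called 6 of the 7 (Cd74, H2-Aa, H2-Ab1, H2-DMb1, H2-Eb1 and H2-Ob), and limma with voom quality weights called none. Their median was 1.22, and each had an unadjusted p below 0.05, with edgeR adjusted p from 0.0753 to 0.138. The differences were 1.27 ± 0.42 for H2-Aa, 1.22 ± 0.41 for H2-Ab1, 1.34 ± 0.45 for H2-Eb1, 1.18 ± 0.39 for Cd74, 1.04 ± 0.36 for H2-DMb1, 0.87 ± 0.36 for H2-DMa and 1.53 ± 0.53 for H2-Ob, the chain of H2-O that restrains H2-DM. Without HZ WY 21 the H2-Aa difference was 0.68 (edgeR adjusted p = 0.283) and that of Cd74 0.64 (edgeR adjusted p = 0.289). Without the 5 HZ libraries apart they were 0.25 (edgeR adjusted p = 0.724) and 0.27 (edgeR adjusted p = 0.619), and those of H2-Ab1 and H2-Eb1 were both 0.30. Leaving out HZ vehicle 38, a mouse outside this comparison, brought H2-Aa to an edgeR adjusted p of 0.0464 and Cd74 to 0.039.

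H2-DM, which exchanges peptide on class II, followed the same mice. H2-DMa was at 1.09, 1.89 and 2.68 CPM in WT and 1.59, 2.2 and 4.69 in HZ under vehicle, and 0.956, 2.26 and 3.66 in WT and 1.64, 3.24 and 11.5 in HZ under WY. H2-DMb1 was at 0.996, 1.98 and 2.51 CPM in WT and 1.29, 2.09 and 4.88 in HZ under vehicle, and 0.635, 1.55 and 2.19 in WT and 1.47, 2.71 and 8.71 in HZ under WY. Ciita, the class II regulator, was at 0.774, 1.25 and 2.22 CPM in WT and 0.711, 1.12 and 4.27 in HZ under vehicle, and 0.265, 0.896 and 1.39 in WT and 0.931, 1.53 and 11.7 in HZ under WY. Its HZ minus WT difference under WY was 1.63 ± 0.52 (edgeR adjusted p = 0.0701), 0.69 without HZ WY 21 and 0.28 without the 5 HZ libraries apart. The highest value was again that of mouse 38 in HZ vehicle and of mouse 21 in HZ WY.

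Under vehicle the 7 class II differences between genotypes were all positive too, with a median of 0.56, no unadjusted p below 0.05 and a smallest edgeR adjusted p of 0.432. With WY the class II genes passed in neither genotype with edgeR over all libraries. Without HZ vehicle 38, Cd74, H2-Ab1, H2-DMa and H2-Eb1 were called higher in HZ, as was Ciita, and without HZ WY 5 H2-Ab1 and H2-DMa were. Their median change was -0.19 in WT, with 2 of 7 positive, and 0.43 in HZ, with 7 of 7 positive (smallest edgeR adjusted p 0.467 and 0.105). The comparisons share control groups and are not independent. For the difference between the 2 WY responses, the interaction, edgeR called none of the 27 genes and 0% of all genes. At an unadjusted p below 0.05 it was 1, H2-Ke6 (-0.24 ± 0.09), against 9.38% of all genes, and DESeq2 and limma called none of the 27. Without HZ vehicle 38 the 1 became 7, and the share of all genes in that fit was not computed. The class II median in the interaction was 0.71, with a smallest edgeR adjusted p of 0.706.

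**Figure D4:**
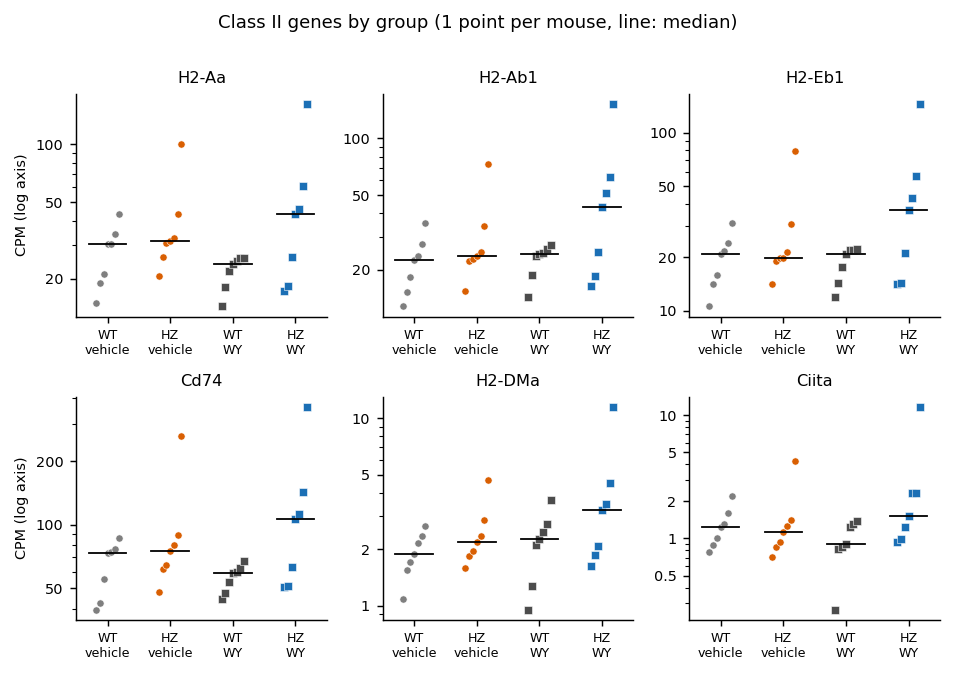
CPM of 6 class II genes in each mouse by group, on log axes, with a line at the median. In HZ 1 vehicle mouse (38) and 1 WY mouse (21) lie above all others for every gene, and the remaining mice overlap between groups.

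The ratio of H2-Aa to Cd74 CPM had medians of 0.413 in WT and 0.422 in HZ under vehicle, and 0.383 in WT and 0.41 in HZ under WY, within 0.325 to 0.501 over all mice. The ratio of H2-Ab1 to H2-Aa was higher under WY: 0.717 to 0.96 (median 0.801) in WT vehicle against 0.927 to 1.17 (1.03) in WT WY, with a narrow overlap. In HZ it was 0.726 to 0.852 (0.748) under vehicle against 0.941 to 1.18 (0.961) under WY, with no overlap. H2-Eb1 to H2-Aa had medians of 0.711 and 0.7 in vehicle mice and 0.857 and 0.823 in WY mice (WT first), and the treatments overlapped. After group means were removed, H2-Aa correlated over 28 libraries with H2-Ab1 (Pearson r 0.99), H2-Eb1 (0.99) and Cd74 (0.98), the 3 genes most like it among 9239. Next came 4632428N05Rik (0.84). Without HZ vehicle 38 and HZ WY 21 the first 3 were at 0.97 to 0.98 and 4632428N05Rik was at 0.7. Ciita followed H2-Aa at 0.89, or 0.75 without those 2 libraries. These are descriptions over libraries that share their processing and the cell makeup of each liver.

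The class I genes fell into different company. H2-K1 and H2-D1 varied together (r 0.92, 0.89 without the 2 libraries), and H2-K1 with B2m (0.8 and 0.64) and with Nlrc5 (0.64 and 0.58). The genes most like B2m were AW112010 (0.9), Ly6e (0.83), H2-K1 (0.8), Eif4e3 (0.76) and H2-D1 (0.75). H2-Q10 had r -0.01 with H2-K1 and -0.14 with B2m, or 0.44 and 0.2 without the 2 libraries. The genes most like H2-Q10 were Qdpr (0.87), Dbi (0.86), Cisd1 (0.85), Acss2 (0.8) and Ebp (0.8), none of them an MHC gene. H2-T24 went with the interferon-induced GTPase gene Irgm1 (0.78 and 0.75), while H2-Aa did not (0.1 and -0.29). Both values for H2-T24 include WT vehicle 76, the highest of its group in H2-T24 (21 CPM) and in Irgm1 (89.2 CPM). The correlation without that mouse was not computed.

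Summed markers of several cell types, most of them immune, were also high in some of these HZ mice. Of 13 markers of Kupffer cells and macrophages, 13 had positive HZ minus WT differences under WY, with a median of 0.6. Of these, 11 had an unadjusted p below 0.05 (24.1% of all genes) and none was called. Their summed level was 468 to 599 CPM in WT vehicle and 347 to 555 in WT WY, against 456 to 989 in HZ vehicle and 407 to 1110 in HZ WY. It was highest in HZ vehicle 30 and HZ WY 14, both among the 5 HZ libraries apart. Differences of the marker lists without those libraries were not computed. All 5 tested of 6 markers of monocytes and neutrophils were positive as well (median 1.56, none called), with sums of 5.05 to 9.84, 3.86 to 5.81, 4.82 to 20.5 and 4.96 to 24.4 CPM in the same order of groups. Dendritic cell markers (5 tested of 9, all 5 positive, median 0.4, none called) summed to 6.21 to 8.55, 5.36 to 7.29, 7.67 to 12.9 and 5.48 to 17.4 CPM. Those of T and NK cells (1 tested of 9) summed to 1.43 to 2.95, 1.14 to 2.48, 1.29 to 6.16 and 1.53 to 5.19 CPM, and those of B cells (2 tested of 6) to 1.1 to 3.19, 1.64 to 2.88, 1.22 to 5.06 and 1.69 to 4.75 CPM. HZ vehicle 38 and HZ WY 21 had the highest sums of their groups for monocytes and neutrophils, dendritic cells, and T and NK cells. Single markers did not all follow. Ccr2 and Ly6c2 were highest in these mice, whereas S100a8, S100a9, Csf3r and Retnlg were highest in HZ vehicle 30 and HZ WY 15. Among dendritic cell markers Flt3, Clec9a, Itgax and Siglech were highest of their groups in both 38 and 21. Xcr1 and Batf3 were highest in 21 but not in 38, Cd209a in 38 but not in 21, and Zbtb46 and Ccr7 in neither. Mice 38 and 21 were also highest for stellate cells (384 CPM in 38 and 335 in 21, against at most 318 in WT). Their cholangiocyte sums were 68.7 and 97.1 CPM, against at most 37.6 in WT, but Spp1 alone was 59.9 and 88.3 of these. Of 4 tested cholangiocyte markers, 2 had positive and 2 negative HZ minus WT differences under vehicle, and likewise under WY. All 6 hepatocyte markers had negative HZ minus WT differences under WY (median -0.14, none called). No marker in these lists was at 0 in all libraries. Their part in the class II levels was not tested.

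**Figure D5:**
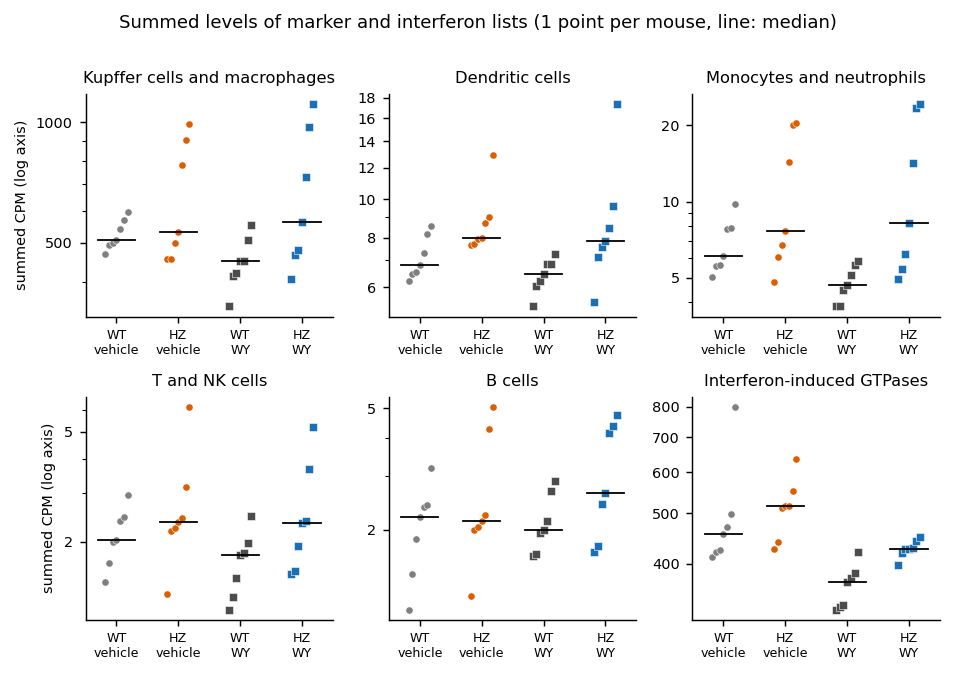
Summed CPM of 5 cell type marker lists and of 8 interferon-induced GTPases in each mouse by group, on log axes, with a line at the median. The HZ groups reach higher than the WT groups in the 5 marker lists, and WT vehicle 76 has the highest GTPase sum.

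Lists of genes that act with MHC molecules are read against the 27.4 and 26.7% of all genes that rose and fell with WY in WT, and the 29.3 and 26.4% in HZ. Of 5 genes that load class I in the endoplasmic reticulum, 4 fell in both genotypes: the peptide-trimming aminopeptidase Erap1 (-0.67 ± 0.08 in WT and -0.76 ± 0.08 in HZ), calnexin Canx (-0.44 ± 0.06 and -0.46 ± 0.06), Pdia3 and Calr. Of the 5 genes of the immunoproteasome and its activator, 2 rose in WT, the activator subunits Psme1 (0.48 ± 0.07) and Psme2 (0.32 ± 0.07). In HZ Psme1 rose (0.46 ± 0.07) and the immunosubunit Psmb9 fell (-0.47 ± 0.17). Psmb9 was also the 1 gene of this list that was called between genotypes under vehicle, higher in HZ by 0.67 ± 0.17 (edgeR adjusted p = 0.0367). Of 7 genes of class II peptide processing, 2 fell in both genotypes, the cathepsins Ctsl (-0.64 ± 0.11 and -0.77 ± 0.11) and Ctsh (-0.26 ± 0.06 and -0.34 ± 0.06). Of 6 costimulation genes 4 were tested, with a smallest edgeR adjusted p of 0.0587 for WY in WT and 0.0987 for genotype under WY.

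Upstream of the MHC promoters, 7 genes for factors that bind with CIITA and NLRC5 were tested. With WY 1 rose and 3 fell in WT, and 3 rose and 3 fell in HZ. Creb1 fell by 0.35 ± 0.07 in WT and 0.40 ± 0.07 in HZ, Nfyb by 0.34 ± 0.08 in WT, and Rfxap rose by 0.26 ± 0.07 in HZ. Of 10 interferon gamma signalling genes (9 tested), 4 fell in WT, among them Irf2 (-1.11 ± 0.13) and the kinase Jak1 (-0.45 ± 0.05). In HZ 3 fell, among them Irf2 (-1.04 ± 0.13) and Jak2 (-0.70 ± 0.08), and 1 rose. Of 8 interferon-induced GTPases, 6 fell with WY in WT (median -0.77) and 3 in HZ (median -0.33). Without mouse 76, 4 fell in WT (median -0.43), and without the 5 HZ libraries 4 fell in HZ (median -0.65). Over all libraries the GTPases that fell include Irgm1 (-0.90 ± 0.16 and -0.63 ± 0.15) and Gbp7 (-1.30 ± 0.23 and -0.92 ± 0.22). The interaction passed for none of these 8 (smallest edgeR adjusted p 0.67), so the counts of 6 and 3 are not shown to differ.

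Among 5 class I-like genes outside the H2 prefix, all passed with WY in both genotypes, 3 higher and 2 lower. The neonatal Fc receptor gene Fcgrt rose by 0.78 ± 0.06 in WT and 0.70 ± 0.06 in HZ, Cd1d1, which presents lipids, by 0.51 ± 0.06 and 0.37 ± 0.06, and Hfe, an iron regulator, by 0.28 ± 0.07 and 0.53 ± 0.07. Mr1, which presents vitamin B metabolites, fell (-1.06 ± 0.12 and -0.81 ± 0.12), as did Azgp1 (-0.21 ± 0.06 and -0.27 ± 0.06). Under WY, Mr1 was higher in HZ than in WT (0.47 ± 0.12, edgeR adjusted p = 0.0365) and Cd1d1 (-0.24 ± 0.06, edgeR adjusted p = 0.0345) and Fcgrt (-0.22 ± 0.06, edgeR adjusted p = 0.0468) were lower. Over all genes 1.42% were called higher and 1.74% lower in that comparison.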

How the data were processed

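Liver RNA of 28 mice was sequenced, 7 per group. Per the submitters' processing notes, STAR 2.5.0a, HTSeq 0.6.1p1 and DESeq2 1.18.1 were used with mm10. No source used here names the annotation or the strand setting. The authors deposited raw counts per gene symbol in separate vehicle and WY tables. Reads not placed uniquely made up 35.8 to 42.6% of a library. The 5 summary rows and the rows whose names had become dates (25 in the vehicle table, 27 in the WY table, 0.147 to 0.247% of gene counts) were left out. Replicates differed by more than counting error (chi-square per degree of freedom 10.9 to 113). Animal numbers served as replicate numbers, and p-values measure the spread between these mice.

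The counts of all 28 libraries were fitted together with edgeR 4.0.16 in R 4.3.3: filterByExpr with the 4 groups (12607 genes kept), TMM, robust quasi-likelihood tests with 24 residual degrees of freedom, 1 mean per group, and Benjamini-Hochberg adjustment within a comparison. DESeq2 1.42.0, limma 3.58.1 with voom, other size factors, no filter, a fit of the groups compared alone, a term for animals 71 to 78 and each library left out were alternatives. The fit was tested on simulated counts. CPM uses TMM library sizes, lengths and overlaps come from GENCODE M21, and residual correlations used log2 CPM with a prior count of 2.

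The genes and lists were chosen with earlier results of these data known. Every gene with a mean of at least 1 CPM is named with values, and ranges are given for those that passed and for the 2 most abundant of each class. For other lists, genes of smallest p are named. Leaving out the libraries that stood apart was chosen after seeing the data. Of the 5 genes most like H2-Aa, 1 is not reported here.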

Additional observations from a re-analysis of the deposited data

Results flagged for a closer look

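In each group of 7 the highest and lowest mouse of the 25 genes with a mean of at least 1 CPM were compared with the others by Dixon's ratio (gap to the nearest mouse over the whole range, against its 95% critical value for 7 samples). Of 100 groups of values, 27 had a mouse far above the others, where chance gives about 1 in 20. The genes are not independent, since the same mice recur. CPM of the mouse is given against that of the next mouse of its group.

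In HZ vehicle, mouse 38 was far above the others for 12 genes: B2m (2510 against 1900), Cd74 (264 against 89), Ciita (4.27 against 1.41), H2-Aa (100 against 43.3), H2-Ab1 (73.3 against 34.1), H2-DMa (4.69 against 2.88), H2-DMb1 (4.88 against 2.67), H2-Eb1 (79 against 30.7), H2-Q1 (3.37 against 1.66), H2-T10 (14.5 against 5.11), Tap2 (41.9 against 28.8) and Tapbp (119 against 82.8). These cover class II, its regulator and part of the class I pathway.

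In HZ WY, mouse 21 was far above the others for 11 genes: Cd74 (363 against 143), Ciita (11.7 against 2.33), H2-Aa (162 against 60.6), H2-Ab1 (153 against 62.4), H2-DMa (11.5 against 4.5), H2-DMb1 (8.71 against 3.46), H2-Eb1 (146 against 57.2), H2-K2 (12.9 against 9.07), H2-M3 (3.58 against 2.23), H2-Q4 (32.1 against 21.6) and Tap1 (28.1 against 19.2). Class II genes and Ciita were in both sets, and B2m was not in this one.

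In WT vehicle, mouse 76 was far above for 3 class I genes, H2-T10 (4.98 against 3.65), H2-T23 (124 against 84.5) and H2-T24 (21 against 8.11). Its H2-Aa (15 CPM) and Cd74 (39.6 CPM) were the lowest of the group. In WT WY, mouse 11 was far above for H2-Q1 (1.89 against 1.11).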

How the results depend on the processing

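For HZ against WT under vehicle, the count of called genes was 0 with edgeR, 2 with DESeq2 and 1 with limma and voom. For HZ against WT under WY it was 1, against 11 with DESeq2, 2 with limma and voom, 2 in a fit of the groups compared alone, 0 without the 5 HZ libraries apart and 2 without HZ vehicle 38 and HZ WY 21. Over all genes, 261 were called under vehicle with edgeR, 500 with DESeq2 and 729 with limma and voom. Under WY, 1102, 968, 485, 48 and 210 of all genes were called in the alternatives just named, in that order. The cause of these differences between tools was not tested. When each library was left out in turn, the counts ran from 0 to 1 for genotype under vehicle, from 1 to 8 for genotype under WY (8 without HZ vehicle 38, 3 without HZ WY 2), from 5 to 8 for WY in WT, from 4 to 10 for WY in HZ (10 without HZ vehicle 38, 8 without HZ WY 21) and stayed at 0 for the interaction. For genotype under WY, 762 of all genes were called without HZ vehicle 38 and 977 without HZ WY 2. For WY in HZ, 6785 of all genes were called without HZ vehicle 38 and 7130 without HZ WY 21. Over 32 changes of single genes and 36 settings no direction reversed. These changes were taken because they were called or had an unadjusted p below 0.05 in the main fit, so a reversal was unlikely beforehand. Of the planned values, 1033 kept their side of the threshold, 26 newly passed and 29 no longer passed, and of the added ones 60, 2 and 2. Many of these settings leave out a mouse outside the comparison, which hardly moves the estimate, so the counts of kept values are not a measure of stability. H2-Bl in WT lost its call most often. H2-Q10, B2m and H2-Ke2 kept theirs for WY in both genotypes when any 1 library was left out.

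No paired analysis was possible because no animal number occurs in more than 1 group. Depth limits genes such as Ciita, H2-Q1, H2-Ob and H2-Q5, with 258 to 854 counts in all 28 libraries together.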
